A study of Prunus domestica x Prunus domestica subsp. insititia with 6 samples.

Results

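In leaves of a plum rootstock, 94 of 16917 tested genes separated Control R1 and Control R3 from the third control library and from all 3 flooded libraries. Of these, 67 were higher and 27 were lower in Control R1 and Control R3. The genes were chosen by their measured levels in all 6 libraries: both of these controls had to lie at least 3-fold above, or both at least 3-fold below, each of Flooding R1, Flooding R2, Flooding R3 and Control R2. Levels are log2 CPM, the log2 of scaled counts (CPM, counts-per-million) with a small added count. The scale is the library's total in tested genes times a scaling factor (TMM). Because all 6 libraries entered the choice, the values of the genes are a description, and the distance between the libraries that the choice demanded carries no test.

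The RNA came from leaves of the plum cultivar Julior (Prunus insititia x Prunus domestica), whose trees had been raised from cuttings in pots and are listed as tolerant of flooding. The 3 flooded samples came from plants whose water stood about 3 cm above the ground for 48 hours. The 3 control samples came from plants watered daily to field capacity. All plants were 10 months old and shared a greenhouse with hot days. Separate plants for the samples of a group are not stated in the labels, so the spread between them can be technical. The series' own design text speaks of duplicates, while 3 samples per group are labelled.

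When soil is flooded, roots lose access to oxygen and shift to fermentation, and the precursor of the hormone ethylene moves up to the shoot. Leaves of flooded trees commonly close their stomata and slow photosynthesis, although their own cells still have air. Leaf transcripts also follow the clock, light, temperature, leaf age and pathogens, none of which the labels record for single samples. The files do not pair the gene IDs with names, and no annotation was used here. No function is therefore given for any gene, the leaf label was not checked against marker genes, and only 2 genes in each direction are named by ID.

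Reads counted in genes ran from 11070986 to 12578205 in the flooded libraries and from 13342964 to 15864206 in the controls. At this depth, 3 reads correspond to 0.251 to 0.291 CPM in the flooded libraries and to 0.184 to 0.211 CPM in the controls. Control R1 and Control R3 formed the most similar pair of libraries over all tested genes (r = 0.978, across genes, which are not independent replicates). Control R2 had r = 0.935 with Control R1, 0.957 with Control R3 and 0.949 to 0.960 with the flooded libraries. Flooding R3 had r = 0.957 with Control R1 and 0.959 with Control R3. Control R1 and Control R3 also had the highest scaling factors of the 6 libraries, 1.11 and 1.07, against 0.932 to 1.04 in the flooded libraries and 0.919 in Control R2. With library totals in place of these factors, 76 genes were higher and 21 lower, all of the 67 and 21 of the 27 among them. Reads outside gene models made up 0.940% to 5.63% of the flooded libraries and 1.12% of Control R2. The share was 1.37% in Control R1 and 1.07% in Control R3, with Control R2 between them. Whether this share bears on the separation of the pair was not tested.

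The 67 higher genes were low in the flooded leaves and in Control R2, and moderately expressed in Control R1 and Control R3. Their median level was 1.72, 1.36 and 1.76 CPM in Flooding R1 to R3 and 1.30 CPM in Control R2, against 15.7 CPM in Control R1 and 13.3 CPM in Control R3. On the log2 scale these medians were 0.91, 0.59 and 0.93 in the flooded libraries, 0.54 in Control R2, and 3.99 and 3.75 in Control R1 and Control R3. Over all tested genes the medians were nearly level, from 4.01 to 4.05 in the flooded libraries and from 4.01 to 4.07 in the controls. The higher genes were thus less abundant than the typical tested gene in each of the 6 libraries, and their median came nearest to it in Control R1.

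**Figure D1:**
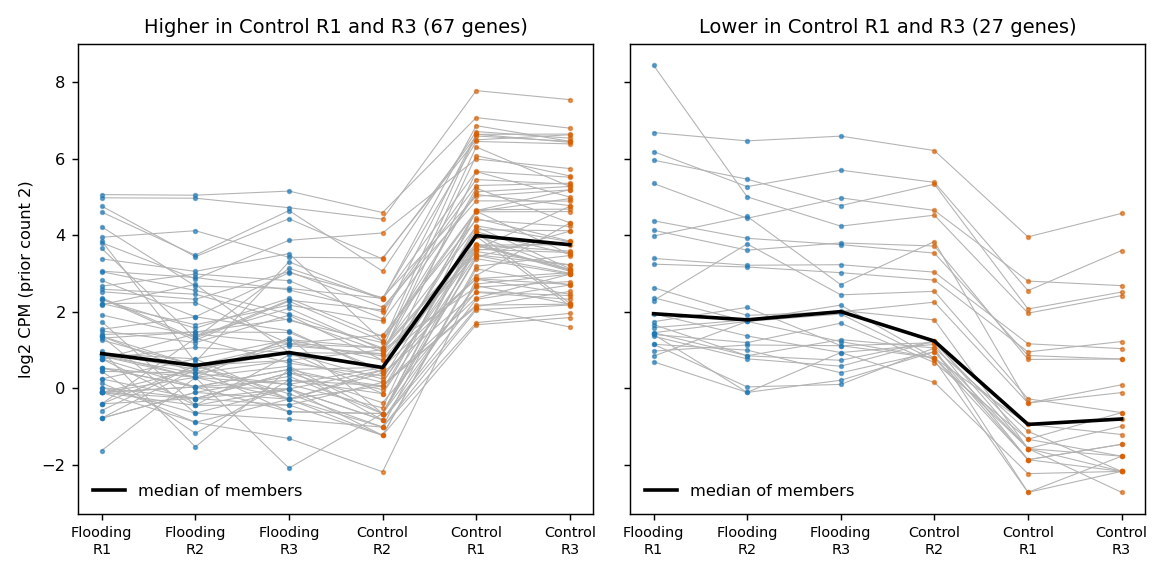
Level of each gene (log2 CPM, vertical axis) in each library (horizontal axis), for the 67 genes higher (left) and the 27 genes lower (right) in Control R1 and Control R3; each grey line is a gene, blue points are flooded and orange points control libraries, and the black line joins the medians. The rule put Control R2 on the side of the flooded libraries in every gene shown, and its medians were 0.54 for the higher and 1.23 for the lower genes.

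The largest separation belonged to Prupe.7G051300_v2.0.a1. It had 1.21, 1.16 and 0.921 CPM in Flooding R1 to R3, against 25.2, 0.549 and 25.5 CPM in Control R1 to R3. Control R1 and Control R3 were almost equal and far above the rest, and Control R2 was the lowest library of all, so the groups overlapped. In reads, it had 14, 12 and 11 in the flooded libraries, against 410, 8 and 362 in the controls. The smaller of the 2 high controls lay 18.6-fold above the highest flooded library on the log2 CPM scale with its added count.

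The second, Prupe.7G050700_v2.0.a1, was also highest in Control R1 and Control R3, with Control R2 lowest. It had 5.86, 5.34 and 3.27 CPM in Flooding R1 to R3, against 99.0, 2.13 and 99.4 CPM in Control R1 to R3. Again Control R2 was below every flooded library, and Control R1 and Control R3 differed by less than 1 CPM. The distance to the nearest other library was 16.5-fold. The 2 genes stand 6 rows apart in the deposited gene list, and reads of similar gene copies, if these are such, could be shared between them.

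**Figure D2:**
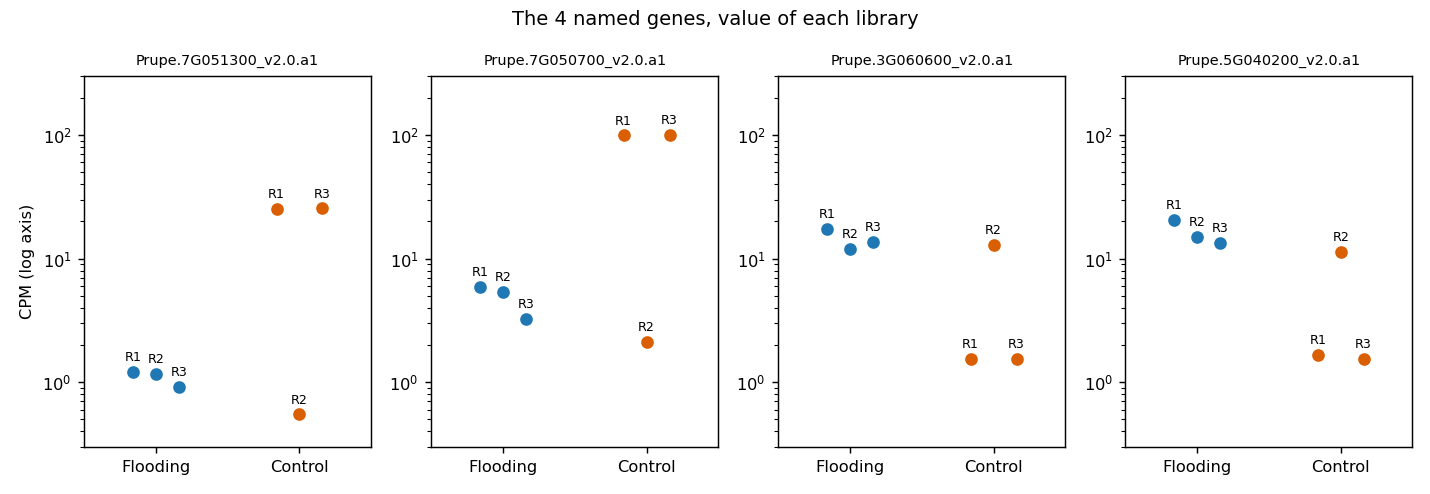
CPM (log axis) of the 4 named genes in the flooded (blue) and control (orange) libraries, with the replicate written above each point. In Prupe.7G051300_v2.0.a1 and Prupe.7G050700_v2.0.a1 Control R1 and R3 lie above the other libraries, in Prupe.3G060600_v2.0.a1 and Prupe.5G040200_v2.0.a1 below them. In all 4 the rule put Control R2 on the side of the flooded libraries.

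In 8 of the 67 higher genes, Control R1 and Control R3 lay at least 8-fold from every other library. These 8 ran from 0.775 to 6.20 CPM in Flooding R1, from 0.485 to 7.76 CPM in Flooding R2 and from 0.502 to 6.87 CPM in Flooding R3. In the controls they ran from 12.03 to 99.2 CPM in Control R1, from 0.481 to 3.37 CPM in Control R2 and from 14.1 to 99.4 CPM in Control R3. Within each of the 8 genes, the choice itself put Control R1 and Control R3 above the other 4 libraries, so nothing is read from this separation.

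The most abundant of the higher genes, described here after its values were seen, had 31.3, 31.0 and 26.1 CPM in Flooding R1 to R3, against 219, 21.2 and 186 CPM in Control R1 to R3. Its reads numbered 312 to 363 in the flooded libraries, 309 in Control R2, and 3561 and 2639 in Control R1 and Control R3. It had at least 309 reads in every library, so its separation does not rest on low counts. Most of the higher genes had fewer reads, and 14 of the 67 had at least 30 reads in each of the 6 libraries. In 4 of the 67, at least 1 of the flooded libraries or Control R2 had 3 reads or fewer, and none of the 67 had a library without reads.

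All 67 higher genes together held 332, 238 and 288 CPM in Flooding R1 to R3, against 2154, 186 and 1883 CPM in Control R1 to R3. This was 0.0345%, 0.0221% and 0.0274% of the reads counted in genes in the flooded libraries, against 0.238%, 0.0171% and 0.201% in the controls. Even in Control R1 and Control R3, the higher genes made up a small part of the leaf RNA that was counted.

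The 27 lower genes were also rare, although their medians in the flooded libraries and in Control R2 were above those of the higher genes. Their median level was 3.70, 3.30 and 3.85 CPM in Flooding R1 to R3 and 2.20 CPM in Control R2, against 0.368 CPM in Control R1 and 0.422 CPM in Control R3. On the log2 scale the medians were 1.95, 1.79 and 2.001 in the flooded libraries, 1.23 in Control R2, and -0.94 and -0.80 in Control R1 and Control R3. In 12 of the 27, Control R1 or Control R3 had 3 reads or fewer, and in 9 of these both did. For these genes the distance is set largely by the count added before taking logs, and no fold is given for any of them singly. A larger added count of 5 left 17 of the 27 lower and 58 of the 67 higher genes past the threshold.

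Among the lower genes whose mean reached 1 log2 CPM, the largest separation was that of Prupe.3G060600_v2.0.a1. It had 17.3, 12.03 and 13.7 CPM in Flooding R1 to R3, against 1.53, 12.98 and 1.55 CPM in Control R1 to R3. Control R2 stood within the range of the flooded libraries, while Control R1 and Control R3 were almost equal and low, at 25 and 22 reads. The distance to the nearest flooded library was 7.17-fold. Prupe.5G040200_v2.0.a1 had 20.6, 14.9 and 13.3 CPM in Flooding R1 to R3, against 1.66, 11.4 and 1.55 CPM in Control R1 to R3. Here Control R2 was slightly below the lowest flooded library, so the groups did not overlap. The distance from Control R1 to Control R2, the nearest library, was 6.39-fold.

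The widest separation of all lower genes, in a gene too rare for the rule on named genes, rested on 19, 33 and 44 reads in Flooding R1 to R3, against 0, 22 and 1 read in Control R1 to R3. The most abundant lower gene had 102, 87.9 and 95.8 CPM in Flooding R1 to R3, against 15.3, 73.8 and 23.6 CPM in Control R1 to R3. Its flooded libraries all lay above its controls, with Control R2 close to them. Another lower gene stood out for its spread among the flooded libraries, with 345, 31.8 and 18.7 CPM in Flooding R1 to R3, against 3.74, 22.8 and 5.20 CPM in Control R1 to R3. Flooding R1 was far above the other flooded libraries, and Control R2 fell between Flooding R2 and Flooding R3. These 3 genes were picked out after their values were seen. The lower genes together held 746, 341 and 317 CPM in Flooding R1 to R3, against 47.3, 294 and 64.6 CPM in Control R1 to R3, and the high sum in Flooding R1 includes the 345 CPM of that gene.

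The 2 directions were about equally common when any distance was counted, and unequal when a large one was asked for. Control R1 and Control R3 were the 2 highest libraries in 1712 tested genes (10.1%) and the 2 lowest in 1649 (9.75%). A distance of at least 2-fold was seen in 163 higher and 57 lower genes, of at least 4-fold in 38 and 14, and of at least 8-fold in 8 and 0. The median distance was 4.33-fold among the 67 higher genes, with the added count of 2. For the lower genes no median is given, since it falls on a gene with 4 and 2 reads in Control R1 and Control R3. The threshold fell on a smooth slope and not in a break. The 2 higher genes nearest to it inside had distances of 1.59 and 1.60 on the log2 scale, and the 2 nearest outside 1.56 and 1.56. Among lower genes the nearest inside had 1.59 and 1.60, and the nearest outside 1.55 and 1.55. The nearest higher gene left out was abundant, at 7.71, 7.77 and 7.59 log2 CPM in Flooding R1 to R3, against 9.55, 7.98 and 9.74 log2 CPM in Control R1 to R3.

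**Figure D3:**
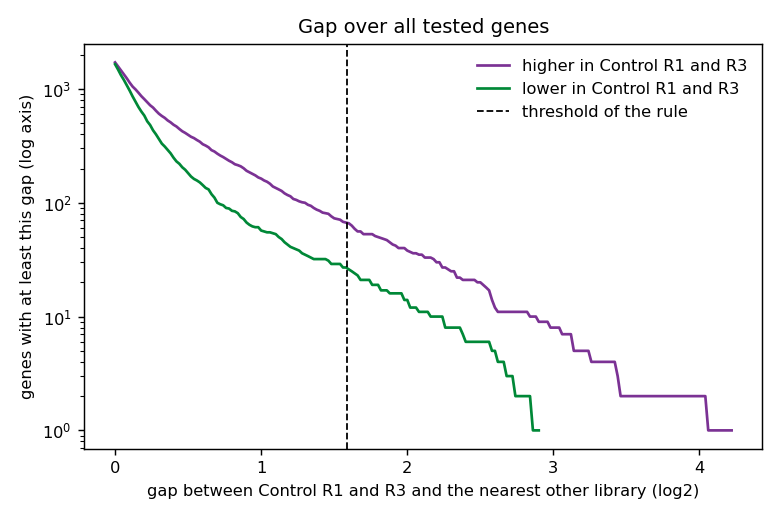
Number of tested genes (vertical log axis) with at least a given distance between Control R1 and R3 and the nearest of the other 4 libraries (horizontal axis, log2), for genes higher (purple) and lower (green) in the 2 controls. The dashed line is the threshold of 1.585, which 67 higher and 27 lower genes passed; the curves start close together, at 1712 and 1649 genes, and part as the distance grows.

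The rule did not fix the order of Control R2 among the flooded libraries. In the 67 higher genes, Control R2 was below all 3 flooded libraries in 40 (59.7%), within their range in 23 (34.3%) and above all 3 in 4 (5.97%). Over all tested genes it was below them in 25.7%, within in 47.3% and above in the other 4568 genes. The difference of Control R2 from the middle flooded library had a median of -0.55 on the log2 scale in the higher genes, against 0.01 over all tested genes. In these 40 higher genes, Control R2 lay farther from Control R1 and Control R3 than any flooded library did. In 1645 genes with Control R1 and Control R3 highest but under the threshold, Control R2 was below all flooded libraries in 30.9% and above all in 20.5%. These genes were more abundant, with a median of 3.54 log2 CPM against 1.71 for the higher genes, and the part of abundance in the difference was not tested.

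In the 27 lower genes, Control R2 was below all 3 flooded libraries in 9 (33.3%), within their range in 17 (63.0%) and above all 3 in 1 (3.70%). Its difference from the middle flooded library had a median of -0.25 on the log2 scale. In the lower genes, then, the 9 genes with Control R2 below the flooded libraries were those in which it leaned towards the other controls, whereas in the higher genes the same place put it farther from them.

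**Figure D4:**
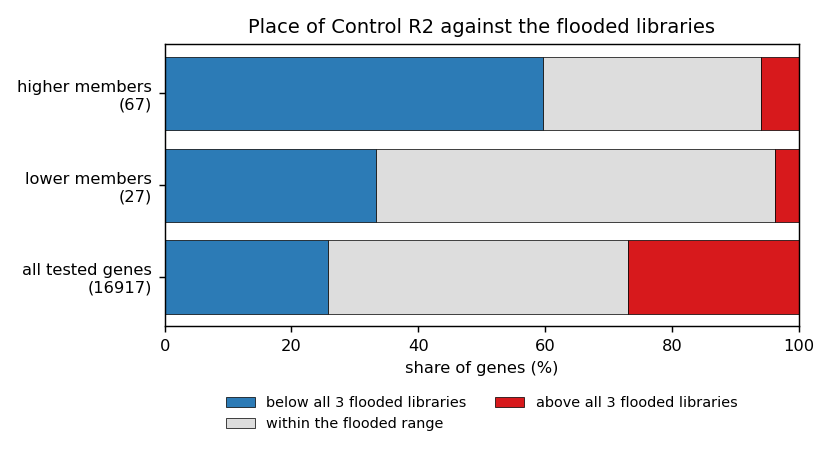
Share of genes (horizontal axis, %) in which Control R2 lay below all 3 flooded libraries (blue), within their range (grey) or above all 3 (red), for the 67 higher genes, the 27 lower genes and all 16917 tested genes. The blue share is 59.7% in the higher genes, 33.3% in the lower genes and 25.7% over all tested genes.

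The flooded library nearest to the high controls was most often Flooding R1. It set the distance in 28 of the 67 higher genes, Flooding R3 in 18, Flooding R2 in 17 and Control R2 in 4. Flooding R2 was the lowest flooded library in 35 of the 67. In the lower genes, the distance was set by Flooding R2 in 9, Flooding R3 in 8, Flooding R1 in 1 and Control R2 in 9. Flooding R1 was the highest flooded library in 30 of the 67 higher (44.8%) and 19 of the 27 lower genes (70.4%), against 32.4% of all tested genes.

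Libraries on the same side also differed among themselves. The range of the 3 flooded libraries had a median of 0.76 on the log2 scale in the higher and 0.78 in the lower genes, against 0.49 over all tested genes. The difference between Control R1 and Control R3 had a median size of 0.28 in the higher and 0.40 in the lower genes, against 0.22 over all tested genes. Control R1 and Control R3 were within 2-fold of each other in 60 of the 67 higher (89.6%) and 24 of the 27 lower genes (88.9%), against 96.0% of all tested genes. The widest difference between them was in a higher gene with 0.775, 0.873 and 0.502 CPM in Flooding R1 to R3, against 16.7, 0.481 and 4.50 CPM in Control R1 to R3. The widest range among the flooded libraries of a higher gene was 14.2, 1.46 and 9.71 CPM in Flooding R1 to R3, against 116, 4.88 and 87.2 CPM in Control R1 to R3. The higher and lower genes were less abundant, with median levels of 1.71 and 0.76 log2 CPM against 4.02 over all tested genes. The part of abundance in the wider spread was not tested.

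Set against flooding as the study labelled it, edgeR's quasi-likelihood test over all 16917 tested genes gave none of the 94 an adjusted p under 0.05, where 0% of tested genes were called higher and 0.0296% (5 genes) lower. The smallest edgeR adjusted p was 0.434 among the higher and 0.492 among the lower genes. The fitted log2 fold change of flooding over control ran from -3.97 to -1.34 in the 67 higher genes and from 0.72 to 3.64 in the 27 lower genes, with medians of -2.33 and 1.497. In the lower genes, the controls of this fit include Control R2, which had at least 14 reads in each of them. The choice of the genes fixes these signs in practice, so nothing is read from them. At an unadjusted p under 0.05, 58 of the 67 were lower after flooding, where 3.76% of tested genes were, and 7 of the 27 were higher, where 4.26% were. These shares use the same libraries as the choice and are no support for a response to flooding.

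The named genes had large fitted folds but a wide spread among the controls. Prupe.7G051300_v2.0.a1 averaged 1.10 ± 0.154 CPM in flooded leaves and 17.1 ± 14.3 CPM in control leaves (SD, n = 3 each), and edgeR fitted a log2 fold change of -3.95, with an SE of 1.17 and an adjusted p of 0.528. Prupe.7G050700_v2.0.a1 averaged 4.82 ± 1.37 CPM in flooded leaves and 66.8 ± 56.0 CPM in control leaves (SD, n = 3 each), and edgeR fitted a log2 fold change of -3.79, with an SE of 1.16 and an adjusted p of 0.536. In both, the SD of the controls was nearly as large as their mean. Prupe.3G060600_v2.0.a1 averaged 14.4 ± 2.70 CPM in flooded leaves and 5.35 ± 6.60 CPM in control leaves (SD, n = 3 each), and edgeR fitted a log2 fold change of 1.43, with an SE of 0.80 and an adjusted p of 0.685. Prupe.5G040200_v2.0.a1 averaged 16.3 ± 3.82 CPM in flooded leaves and 4.87 ± 5.66 CPM in control leaves (SD, n = 3 each), and edgeR fitted a log2 fold change of 1.74, with an SE of 0.75 and an adjusted p of 0.622. In both lower genes the SD of the controls exceeded their mean.

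Every flooded library was below every control in 4 of the 67 higher genes, where this held in 6.14% of tested genes. In these 4, Control R2 was 0.14 to 0.51 above the highest flooded library on the log2 scale, while Control R1 and Control R3 were at least 1.63 above Control R2. All flooded libraries lay above all controls in 9 of the 27 lower genes, where this held in 6.76% of tested genes. The choice had already put Control R1 and Control R3 on their side of every flooded library, so that only the place of Control R2 was free, and nothing is read from these shares. In the 9 genes, Control R2 was 0.11 to 0.79 below the lowest flooded library. In these 4 and 9 genes, Control R2 stood closer to a flooded library than to either of the other controls. The choice had demanded at least 3-fold between Control R2 and those controls, so nothing is read from this.

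The flooding comparison of these genes turned on Control R2. Without it, edgeR's quasi-likelihood test called 47 of the 67 higher genes lower after flooding, where 0.554% of tested genes were called lower, and 13 of the 27 lower genes higher, where 0.150% were. Both counts follow from the choice, which placed Control R2 with the flooded libraries. The median fitted log2 fold change without Control R2 was -2.85 in the higher genes. Without any other single library, 0 of the 94 genes were called. These fits also called almost no tested gene at all: 0 higher in each, and 0 lower except 1 without Flooding R2. DESeq2, with all 6 libraries, called 15 of the 67 higher genes lower after flooding, where it called 0.692% of the 18055 genes it gave an adjusted p, and 1 of the 27 lower genes higher, where it called 0.598%. Limma-voom called none of the 94, where it called 0 of all tested genes higher and 4 lower. None of the 5 genes that edgeR's test called over the whole table was among the 94, and in all 5 Control R2 lay at least 1.60 on the log2 scale above the highest flooded library.

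Some of the higher genes stood near each other in the deposited gene list, which runs in order of gene ID. Of the 67, 20 had another higher gene within 10 rows, among IDs with the same number before the letter G. Of the 724 tested neighbours within 10 rows of a higher gene, 20 (2.76%) were themselves among the 67, where 0.396% of all tested genes were. With 5 rows the share was 2.47% (9 of 364) and with 20 rows 1.79% (24 of 1341). In the lower genes, 2 of 315 neighbours within 10 rows (0.635%) were among the 27, where 0.160% of tested genes were. The neighbours that were not among the 67 had Control R1 and Control R3 as the 2 highest libraries in 12.6% of 704 genes, against 10.1% of tested genes. The named pair Prupe.7G051300_v2.0.a1 and Prupe.7G050700_v2.0.a1 is among the 20 higher genes that had another within 10 rows. Place in the list was not used to choose the genes, but the windows were set with earlier results known. Whether the neighbours are copies of one gene that share reads was not tested.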

How the data were processed

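RNA-seq libraries of leaves from 3 flooded and 3 control samples were analysed. The authors deposited 1 table of raw read counts for each library, by gene model; the whole numbers and unequal totals show that nothing had been normalized. The kit was TruSeq RNA version 2, per the labels' protocols. Per the submitters' processing notes, FastQC 0.11.7, Trimmomatic, HTSeq 0.11.1 and edgeR 3.8 were used, with no step named. The sources used here do not give the aligner, genome or strand setting, so counts of similar, overlapping or antisense genes are uncertain. The 5 closing rows that name no gene (14.1% to 19.0% of a library's listed reads) were left out.

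In R 4.3.3 with edgeR 4.0.16, filterByExpr (minimum count 10, minimum total 15) kept 16917 of 26873 genes. Library sizes were recomputed and scaled by TMM factors, and a prior count of 2 was added for log2 CPM. The genes described passed 1.585 on that scale, and all of them passed the filter, since the rule reads only filtered genes. Flooding was compared with control over all kept genes by edgeR's quasi-likelihood F test with no covariate and Benjamini-Hochberg adjustment, a call being an adjusted p under 0.05. The test was checked on simulated data. Each standard error is the log2 fold change over the root of its F value. DESeq2 1.42.0 and limma 3.58.1 (voom) were alternatives, beside other scalings, filters, prior counts, folds, a block for the replicate number, and fits without each library. The genes named are the 2 with the largest distance in each direction whose mean over the 6 libraries reached 1 log2 CPM, the rule for IDs that no table pairs with names. For the same reason the lists of leaf and stress genes and the promoter motifs that had been set were not run. No 2 libraries were alike within counting noise (chi-square per gene 21.4 or more). The genes, lists and tests were chosen with earlier results of these data known.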

Additional observations from a re-analysis of the deposited data

Results flagged for a closer look

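In 2 flooded libraries, a share of reads outside the gene counts was more than 3 SD above the mean of the controls. In Flooding R2, 5.63% of listed reads fell outside gene models, against 1.07% to 1.37% in the controls. In Flooding R1, 12.8% aligned to several places, against 10.5% to 11.5% in the controls. In Control R1 and Control R3, the libraries that the 94 genes set apart, the first share was 1.37% and 1.07% and the second 11.5% and 10.5%. Between flooded and control libraries the exact two-sided permutation p was 0.9 for the first share and 0.2 for the second (n = 3 each), where 0.1 is the smallest that 3 against 3 samples can give.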

How the results depend on the processing

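The 67 higher and 27 lower genes were counted again under other settings. Other size factors, the CPM filter and a prior count of 0.5 left both counts within 1.5 times. No filter gave 104 higher genes, of which 37 had been below the filter, and a prior count of 5 gave 17 lower ones. A 2-fold threshold gave 163 higher and 57 lower genes, and a 4-fold one 38 and 14, by construction. With the rule read over 5 libraries, and the filter then keeping more genes, the counts ran from 88 to 137 higher and from 27 to 51 lower, the maxima without Control R3. Without Control R2 there were 117 and 35, holding 66 of the 67 and all 27. Over all tested genes, the flooding comparison (0 higher, 5 lower) gave 1 higher with upper quartile factors, 1 and 9 with library totals, 1 and 9 with no filter, 108 and 125 with DESeq2, and 0 lower at a threshold of 0.01. Fits without 1 library called 0 to 26 genes higher and 0 to 96 lower, and among the 94 genes 0 to 13 higher and 0 to 47 lower, all maxima without Control R2. DESeq2 called 1 higher and 15 lower among the 94. With the replicate number as a replicate block, 0 genes were called. Samples of the same number deviated together with r = 0.06, 0.16 and 0.12, and since the first is under 0.1 and the labels tie no numbers together, they were not taken as pairs, although the best match of every sample carried its own number. The 4 named genes kept their direction in all 15 settings and passed only without Control R2 (adjusted p 0.00255 to 0.0143); over the settings their adjusted p reached 1.00. With library totals, the median log2 fold change over all tested genes was -0.08. The cause of these changes was not tested, beyond fewer libraries or genes. Low counts limit the lower genes most, and 15 of the 27 had over 3 reads in every library.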
